A study of Mus musculus with 15 samples.

Results

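LIM homeodomain and LIM-only genes were followed in mouse neural progenitors in which ventral neural tube transcription factors had been switched on. The 10 genes are Isl1, Isl2, Lhx1, Lhx2, Lhx3, Lhx4, Lhx5, Lhx9, Lmo1 and Lmo4. They were taken by name, as the motor neuron and interneuron LIM factors and LIM-only proteins, from the 23393 genes with a usable symbol in a table of read counts. Of these, 8 were abundant enough to test, and Lhx4 and Lhx9 were too low to judge. The choice was made with earlier results of these data known. Shares of all genes called, given below beside counts of members, are therefore background and not a test of the list. The cells were derived from 129/Ola embryonic stem cells. They were held for 2 days in suspension and then given 500 nM all-trans retinoic acid, and all libraries, controls included, received 1 ug/ml doxycycline for 12 hours. The control was the parental mA2.lox.Cre line carrying TRE_Cre, a doxycycline-inducible Cre recombinase, with 5 libraries. Lines carrying TRE_Nkx2.2, TRE_Nkx6.1, TRE_Olig2, TRE_Nkx6.1-P2A-Nkx2.2 or TRE_Nkx6.1-P2A-Olig2 had 2 libraries each, and P2A is a peptide that lets 1 transcript make both proteins. The study set out to find which genes these factors repress. The labels do not say whether a line is 1 clone or whether libraries of a line came from separate cultures, so the p-values cover the variation among these libraries only, and that variation may be technical.

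LIM homeodomain proteins pair a DNA-binding homeodomain with LIM domains, zinc-coordinating modules that bind other proteins. Their LIM domains dock onto the adaptor Ldb1, which holds several LIM factors in one complex. In the developing spinal cord Isl1, Lhx3 and Ldb1 form the complex that drives motor neuron genes, whereas Lhx3 with Ldb1 alone directs V2 interneurons. LIM-only proteins such as Lmo4 have LIM domains but no homeodomain, and they compete for Ldb1. The inducible factors act earlier, in dividing progenitors: Olig2 marks the motor neuron progenitor domain and Nkx2.2 the neighbouring p3 domain that gives V3 interneurons. Nkx6.1 is made in both domains.

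Library totals ran from 12282038 to 19426544 counts. Every control library, at 18015449 counts or more, was larger than every line library, at 17751854 or less, so depth went with the comparison of line and control. The induced genes followed their labels. Nkx2-2 was at 358 to 505 CPM (counts-per-million, the count relative to the library total, scaled between libraries by the TMM method) in the 4 libraries labelled for it and at 1.39 CPM or less elsewhere. Nkx6-1 was at 616 CPM or more in the 6 libraries labelled for it and at 65.1 CPM or less elsewhere, and Olig2 was at 422 CPM or more in its 4 libraries and at 45.1 CPM or less elsewhere. Deposited counts do not show whether reads came from the transgene or from the endogenous gene. Control replicate 5 held the highest control level of Olig2, 45.1 CPM against 5.58 to 17.3 CPM in the other controls, and it also stood high for Isl1 and Lhx3 below. The cells were a mixture by their markers: in the controls the summed level was 531 to 736 CPM for 8 neural progenitor markers, 200 to 394 CPM for 7 pluripotency markers, 319 to 679 CPM for 6 endoderm markers and 85.9 to 118 CPM for 10 postmitotic neuron markers. In such bulk samples, fewer cells of a type and less RNA per cell cannot be told apart.

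The LIM genes were a small fraction of the transcriptome. All 10 together held 0.00531% to 0.00906% of a library's counts. Per kilobase of exon, Lmo4 had the highest level of the 10 in every group, 15.6 ± 1.64 CPM per kb in the controls (SD, n = 5). Lhx1 followed in the controls at 3.16 ± 0.989 CPM per kb (SD, n = 5) and Lhx2 at 1.77 ± 0.411 CPM per kb (SD, n = 5), and the order of these 3 was the same in all 6 groups. The range of Lhx1 in the controls, 1.83 to 4.54 CPM per kb, overlapped that of Lhx2, 1.22 to 2.35 CPM per kb. Lmo1, Isl1, Isl2, Lhx5 and Lhx3 averaged between 0.122 and 0.681 CPM per kb in the controls, Lhx4 at 0.0243 and Lhx9 at 0.00769 CPM per kb. Control ranges of neighbours from Lmo1 to Lhx3 in this order overlapped, so their ranks are not separated by the spread.

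**Figure D1:**
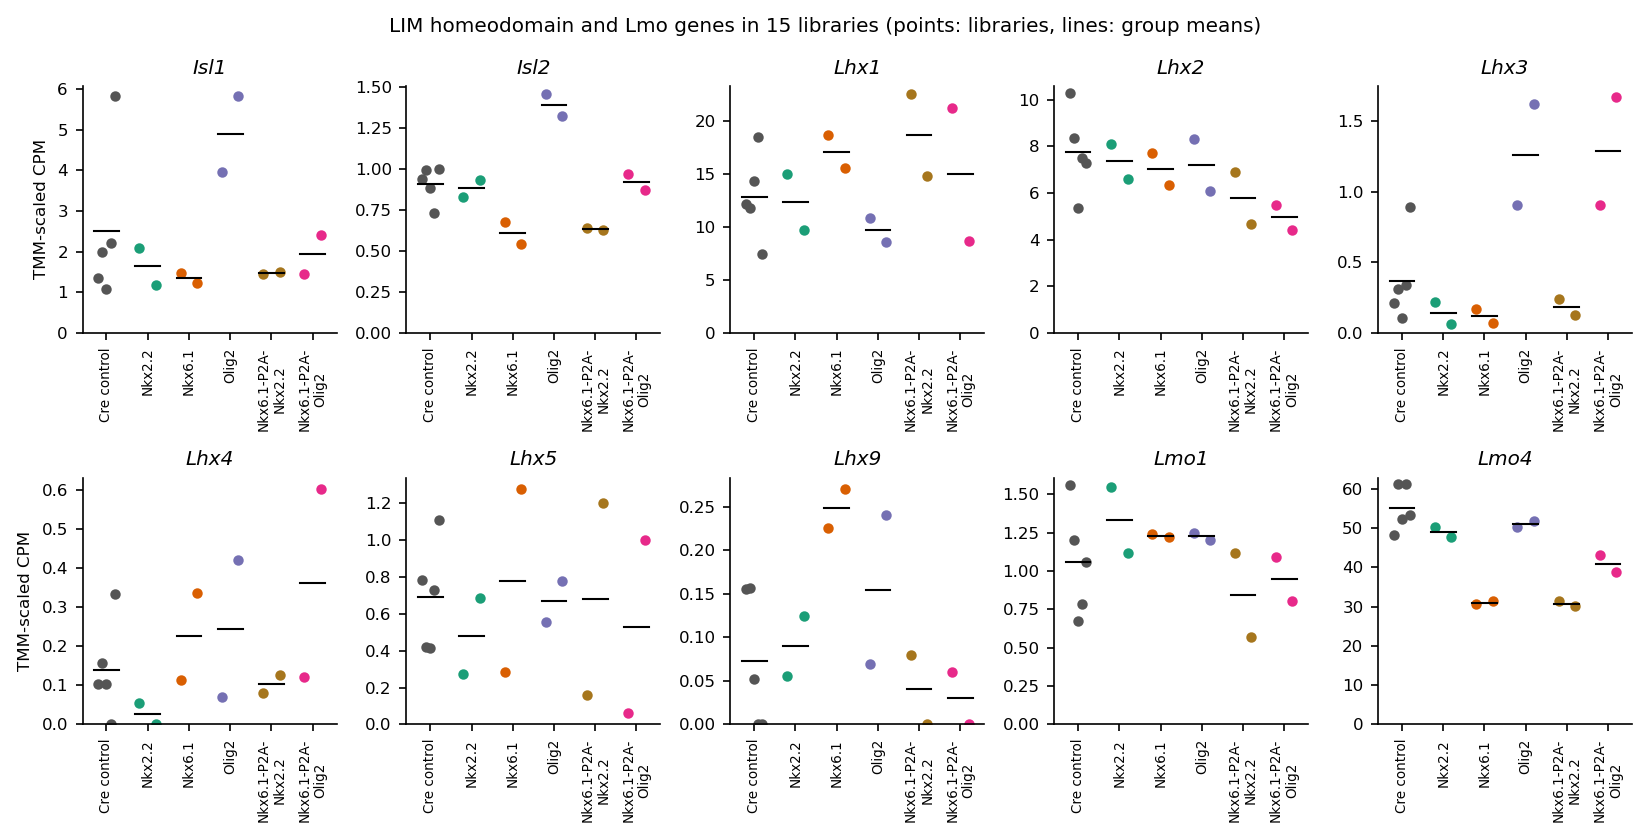
Levels of the 10 LIM homeodomain and Lmo genes in the 15 libraries, as TMM-scaled CPM on linear axes that start at 0, with 1 point per library and a line at each group mean. Lmo4 sits at 30.1 to 31.4 CPM in the Nkx6.1 and Nkx6.1-P2A-Nkx2.2 lines and at 48.2 to 61.3 CPM in the controls, while Lhx3 is highest in the 2 lines that make Olig2.

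Lmo4, the LIM-only protein that competes for Ldb1, was the member that changed. It fell in the 3 lines that make Nkx6.1, alone or with a partner, and did not pass the test in the lines that make Nkx2.2 or Olig2 alone. Lmo4 lies on the minus strand of chromosome 3 (144188530 to 144205220, mm10). The 5 controls gave 48.2, 61.3, 52.2, 61.1 and 53.2 CPM. The Nkx6.1 libraries gave 30.6 and 31.4 CPM, the Nkx6.1-P2A-Nkx2.2 libraries 31.4 and 30.1 CPM, and the Nkx6.1-P2A-Olig2 libraries 43.2 and 38.7 CPM. All 6 of these libraries lay below all 5 controls. The Nkx2.2 libraries, at 50.2 and 47.7 CPM, and the Olig2 libraries, at 50.3 and 51.8 CPM, overlapped the controls.

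Against the control, Lmo4 changed by -0.83 ± 0.10 log2 units (SE) in the Nkx6.1 line, a 1.78-fold lower level (edgeR quasi-likelihood test, Benjamini-Hochberg adjusted p = 0.00370 over 13982 tested genes). Lmo4 was thus 1 of 8 tested members called at an adjusted p under 0.05 there, where 0.737% of all tested genes were called. In Nkx6.1-P2A-Nkx2.2 cells it changed by -0.84 ± 0.10, 1.79-fold lower (edgeR adjusted p = 0.000569), again 1 of 8 members against 2.85% of all genes. In the Nkx6.1-P2A-Olig2 line the change was -0.43 ± 0.10, or 1.35-fold lower (edgeR adjusted p = 0.0327), 1 of 8 members against 2.84% of all genes. In the Nkx2.2 line Lmo4 differed by -0.17 ± 0.10 (edgeR adjusted p = 0.683), and 0 of 8 members were called, with 0 at an unadjusted p under 0.05, where 0.722% of genes were called. In the Olig2 line Lmo4 differed by -0.11 ± 0.10 (edgeR adjusted p = 0.679), and 0 of 8 members were called, with 2 at an unadjusted p under 0.05, where 1.86% of genes were called. DESeq2 also called 0 members in both of these lines. The 5 comparisons share their controls. The call in the Nkx6.1 line was lost without its replicate 1 (-0.82, edgeR adjusted p = 0.0958). The call in the Nkx6.1-P2A-Olig2 line was lost without either of its replicates (-0.52 and -0.35, edgeR adjusted p = 0.0853 and 0.338) and without control replicate 2 or 4 (-0.40 each, edgeR adjusted p = 0.0570 and 0.0613). It was also lost, with a change of the same size or more, with the label series as a term (-0.48, edgeR adjusted p = 0.0694) and with only the compared groups fitted (-0.43, edgeR adjusted p = 0.0999). Both libraries of that line belong to label series 23, as do 2 of the 5 controls.

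**Figure D2:**
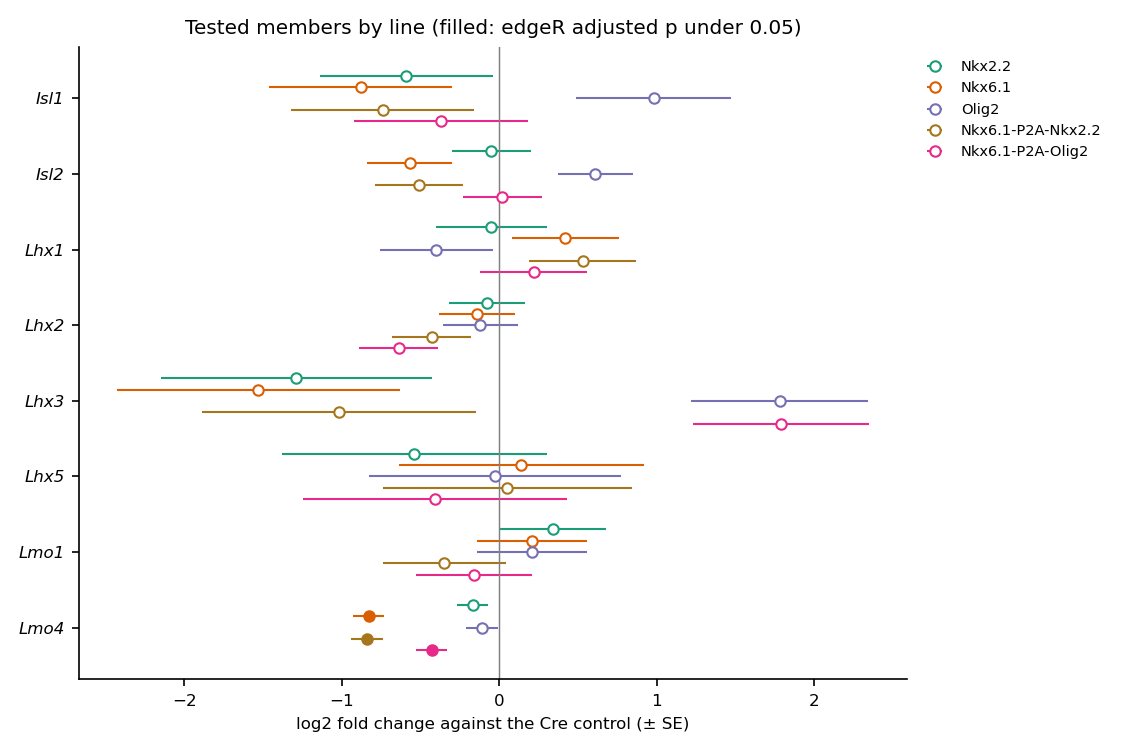
Log2 fold change of the 8 tested LIM genes in each of the 5 lines against the Cre control, with the standard error of the fit as horizontal bars; filled points have an edgeR adjusted p under 0.05. The filled points are the 3 for Lmo4 in the lines that make Nkx6.1, at -0.83, -0.84 and -0.43, and the widest bars belong to Lhx3 and Lhx5.

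The lines were then set against each other in 8 comparisons. The members called were Lmo4 in 2 of them and 0 in the other 6, in which 0.0930% (Nkx6.1-P2A-Nkx2.2 against Nkx2.2), 0.0286% (Nkx6.1-P2A-Nkx2.2 against Nkx6.1), 0.0787% (Nkx6.1-P2A-Olig2 against Nkx6.1), 0.579% (Nkx6.1-P2A-Olig2 against Olig2), 1.84% (Nkx2.2 against Olig2) and 0.157% (Nkx6.1-P2A-Nkx2.2 against Nkx6.1-P2A-Olig2) of all genes were called. At an unadjusted p under 0.05 these 6 held 2, 0, 0, 2, 2 and 2 members. Lmo4 was higher in the Nkx2.2 line than in the Nkx6.1 line by 0.66 ± 0.12 log2 units (edgeR adjusted p = 0.0281), with both Nkx2.2 libraries above both Nkx6.1 libraries; 0.579% of genes were called in this comparison. It was lower in the Nkx6.1 line than in the Olig2 line, by -0.72 ± 0.12 (edgeR adjusted p = 0.00458), where 1.88% of genes were called. The first of these calls was lost without any 1 of its 4 libraries (edgeR adjusted p = 0.0686 to 0.250) and with the label number as a term (0.41, edgeR adjusted p = 0.210), and the second without Nkx6.1 replicate 1 (edgeR adjusted p = 0.0675). Adding Nkx2.2 to Nkx6.1 gave a difference of -0.09 ± 0.16 from the Nkx6.1 line (edgeR adjusted p = 0.888), and adding Olig2 gave 0.32 ± 0.16 (edgeR adjusted p = 0.497). Both libraries of Nkx6.1-P2A-Olig2 lay above both of Nkx6.1, but the difference did not pass the test, nor did that between the 2-factor lines (-0.41 ± 0.12, edgeR adjusted p = 0.394). Against the Nkx2.2 line, the Nkx6.1-P2A-Nkx2.2 line differed by -0.76 ± 0.16 (edgeR adjusted p = 0.178), and against the Olig2 line the Nkx6.1-P2A-Olig2 line differed by -0.40 ± 0.16 (edgeR adjusted p = 0.256). The 4 comparisons that set a 2-factor line against a single-factor line carry a term for the label series: the sample descriptions hold a number that begins with 21 for the single-factor lines and 23 for the 2-factor lines, and the controls alone have both.

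The full label number is shared by a line library and a control library in 7 cases, and what it stands for is not given in the sources used here. Lmo4 was lower in the line library in all 7, but these cases are not independent, since control replicates 4 and 5 each serve both 2-factor lines. The differences in log2(CPM + 1) were -0.64 for Nkx6.1, -0.94 and -0.80 for Nkx6.1-P2A-Nkx2.2, and -0.49 and -0.45 for Nkx6.1-P2A-Olig2. They were -0.28 for Nkx2.2 and -0.05 for Olig2, the smallest of the 7.

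**Figure D3:**
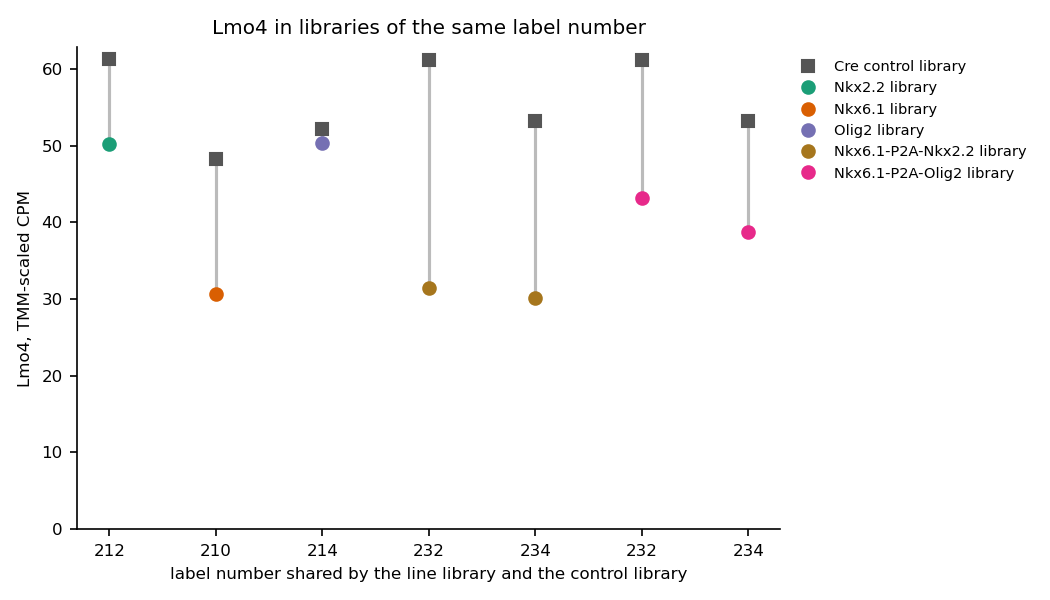
Lmo4 in TMM-scaled CPM for the 7 line libraries (circles) that share a label number with a control library (squares), joined by grey lines on an axis from 0. Control replicates 4 and 5 are each drawn for both 2-factor lines. The circles of the 3 lines that make Nkx6.1 differ from their squares by -0.94 to -0.45 in log2(CPM + 1), and those of the Nkx2.2 and Olig2 lines by -0.28 and -0.05.

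The surroundings of Lmo4 were read in the same fit. The median log2 fold change of the 627 other tested genes of chromosome 3 was between -0.07 and -0.01 in the 5 lines. The tested genes within 1 Mb of Lmo4 are Hs2st1, Sh3glb1 and Odf2l. In the Nkx6.1 line their log2 fold changes were -0.32 to -0.12, and 0 of 3 were called, against 0.737% of all genes (the smallest edgeR adjusted p was 0.0528, for Sh3glb1). The call among them in any line was Sh3glb1 in Nkx6.1-P2A-Olig2, lower by -0.31 (edgeR adjusted p = 0.0320). A sense-intronic transcript, Gm43445, lies within Lmo4 and has no row of its own in the table. Across the 15 libraries the tested genes whose log2(CPM + 1) was most like that of Lmo4 were the zinc-finger factor gene Sp8 (Pearson r = 0.93, Spearman rho = 0.89), the aldehyde dehydrogenase gene Aldh1a7 (r = 0.93, rho = 0.88) and the basic helix-loop-helix gene Hand2 (r = 0.90, rho = 0.85). This is a description over libraries that share lines and label numbers.

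Of the other markers, the endoderm factor Sox17 fell in the same 3 lines as Lmo4: by -0.64 ± 0.10 in Nkx6.1, -0.64 ± 0.10 in Nkx6.1-P2A-Nkx2.2 and -0.82 ± 0.10 in Nkx6.1-P2A-Olig2 (edgeR adjusted p = 0.0123, 0.00330 and 0.000891). Sox17 was at 38.6 to 47.3 CPM in those 6 libraries and at 61.0 to 80.8 CPM in the controls. It was 1 of 5 tested endoderm markers called in each of these lines, where 0.737%, 2.85% and 2.84% of all genes were called. The summed level of the 6 endoderm markers was 310 to 342 CPM in Nkx6.1, 315 to 414 CPM in Nkx6.1-P2A-Nkx2.2 and 213 to 377 CPM in Nkx6.1-P2A-Olig2, against 319 to 679 CPM in the controls. The 10 neuron markers summed to 64.9 to 81.0 CPM in the Nkx6.1 line, below all controls, and overlapped them in the other 2 lines. The 9 V2 interneuron genes summed to 30.3 to 36.0 CPM in Nkx6.1, 34.1 to 34.3 CPM in Nkx6.1-P2A-Nkx2.2 and 30.5 to 38.3 CPM in Nkx6.1-P2A-Olig2, against 50.2 to 75.5 CPM in the controls. As for Lmo4, all 6 of these libraries lay below all controls, while the Nkx2.2 line (58.3 to 94.9 CPM) and the Olig2 line (46.8 to 63.6 CPM) overlapped them. The 11 motor neuron genes summed to 82.9 to 84.3 CPM in Nkx6.1 and 88.9 to 103 CPM in Nkx6.1-P2A-Olig2, below all controls at 104 to 138 CPM, and to 92.0 to 120 CPM in Nkx6.1-P2A-Nkx2.2, overlapping them. The part of these cell types in the Lmo4 result was not tested.

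The stretch before the Lmo4 start site is printed because Lmo4 is the called member, and those of Isl1 and Lhx3 because these genes form 1 complex and were high in some of the same libraries. Each is 200 bases on the minus strand, from 250 to 51 bases before the RefSeq start (RefSeq, GRCm38.p6), at chr3:144205306-144205505 for Lmo4, chr13:116309739-116309938 for Isl1 and chr2:26208300-26208499 for Lhx3. Capitals mark the E-box CAGCTG, a class of site bound by basic helix-loop-helix proteins such as Olig2.
Lmo4: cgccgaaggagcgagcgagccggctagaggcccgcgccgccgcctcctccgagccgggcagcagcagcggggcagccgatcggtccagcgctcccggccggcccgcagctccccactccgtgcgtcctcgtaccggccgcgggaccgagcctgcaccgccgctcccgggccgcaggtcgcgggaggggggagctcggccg
Isl1: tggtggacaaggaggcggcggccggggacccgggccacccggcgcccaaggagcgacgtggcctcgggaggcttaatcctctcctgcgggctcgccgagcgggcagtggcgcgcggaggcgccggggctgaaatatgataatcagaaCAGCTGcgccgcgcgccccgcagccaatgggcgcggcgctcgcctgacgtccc
Lhx3: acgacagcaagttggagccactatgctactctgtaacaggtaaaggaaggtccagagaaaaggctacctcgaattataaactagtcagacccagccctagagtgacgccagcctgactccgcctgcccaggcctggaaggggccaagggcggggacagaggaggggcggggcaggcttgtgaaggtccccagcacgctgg
The Lmo4 stretch is 80.5% G and C, that of Isl1 73.5% and that of Lhx3 59.5%. RefSeq windows from 250 bases before to 50 after the start were found for 9 members, 14 windows in all, and were searched on both strands. The Nkx2-class core TNAAGTG was in 0 of 9 members and in 11.5% of 32851 mouse promoters. The homeodomain core TAATTA was in the windows of Lmo1 and of no other member, and in 5.29% of promoters. Of the E-boxes, CAGCTG was in Isl1 and no other member (16.3% of promoters), and CATATG was in 0 members (3.91%). Both E-boxes and the homeodomain core read the same on either strand, and no member window held more than 1 kind of motif, so no matches overlapped. A match is a description of letters, not of binding.

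Among the motor neuron LIM factors, Lhx3 had its highest line levels in the 2 lines that make Olig2, and Isl1 in the Olig2 line alone. Neither passed the test against the control in the model of all 15 libraries. With the label number as a term, both passed in the Olig2 line, Lhx3 at 3.37 (edgeR adjusted p = 0.0228) and Isl1 at 2.04 (edgeR adjusted p = 0.00809), though only 1 of the 2 Olig2 libraries shares its number with a control. In the Olig2 line that term raised the genes called over the whole table from 260 to 2021. Lhx3 had entered the tested genes through 1 library of each line that makes Olig2. The fit with the label number gave 1.08 for Lhx3 (edgeR adjusted p = 0.173) and -1.0 for Isl1 (edgeR adjusted p = 0.0799) in Nkx6.1-P2A-Olig2, where both libraries share their numbers with controls. Lhx3, which acts with Isl1 in motor neurons and alone in V2 interneurons, lies on chromosome 2 (26200212 to 26208289, minus strand, mm10). Its counts were 13 and 27 in the Olig2 line and 15 and 25 in the Nkx6.1-P2A-Olig2 line. The controls had 4, 6, 2, 6 and 16 counts, and the other 3 lines had 1 to 4. In CPM these were 0.906 and 1.62 for Olig2, 0.907 and 1.67 for Nkx6.1-P2A-Olig2, 0.209, 0.314, 0.104, 0.338 and 0.889 for the controls and 0.0622 to 0.241 elsewhere. All 4 libraries that make Olig2 lay above all controls, the lowest of them by a narrow margin over control replicate 5.

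Lhx3 differed from the control by 1.78 ± 0.56 log2 units in the Olig2 line (edgeR adjusted p = 0.173) and by 1.79 ± 0.56 in the Nkx6.1-P2A-Olig2 line (edgeR adjusted p = 0.116). Without control replicate 5 the values were 2.38 and 2.38, and both passed (edgeR adjusted p = 0.0202 and 0.0185). Leaving out that 1 library thus changed the call in both lines, as the label number term did in the Olig2 line. It was the highest control for Lhx3, so leaving it out could only raise the values. In each line this was the 1 fit that passed of the 15 that each left out 1 library. Over all alternatives the adjusted p for Lhx3 in the Olig2 line ran from 0.0202 to 0.881. Lhx3 passed the filter on low values through 2 libraries, 1 in each of these lines, so its place among the tested genes came from the libraries where it was high. Within label numbers, Lhx3 in log2(CPM + 1) was higher by 0.79 in the Olig2 library and by 0.51 and 0.50 in the Nkx6.1-P2A-Olig2 libraries. Between lines, Lhx3 in Nkx6.1 was -3.30 ± 0.88 against Olig2 (edgeR adjusted p = 0.0833), and in Nkx2.2 it was -3.07 ± 0.84 against Olig2 (edgeR adjusted p = 0.110). Without control replicate 5, which enters these fits through the shared spread, both passed with the same sizes (edgeR adjusted p = 0.0257 and 0.0298). In each comparison this was the 1 fit that passed of the 15 that each left out 1 library. Over those 15 fits the differences ran from -4.09 to -2.83 for Nkx6.1 and from -4.17 to -2.49 for Nkx2.2.

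Isl1, needed for motor neuron fate, lies on chromosome 13 (116298281 to 116309689, minus strand, mm10). The Olig2 libraries gave 3.97 and 5.83 CPM and the controls 1.36, 1.99, 1.09, 2.2 and 5.84 CPM. The Nkx6.1-P2A-Olig2 libraries gave 1.45 and 2.41 CPM, and the Nkx2.2, Nkx6.1 and Nkx6.1-P2A-Nkx2.2 libraries 1.18 to 2.10 CPM. The Olig2 libraries were above 4 of 5 controls, and control replicate 5 was level with the higher of them. Isl1 differed from the control by 0.98 ± 0.49 in the Olig2 line (edgeR adjusted p = 0.431) and by 1.57 without control replicate 5 (edgeR adjusted p = 0.0175). That library was the highest control for Isl1, so leaving it out could only raise the difference. Of the 15 fits that each left out 1 library, this alone passed, and the differences ran from 0.68 to 1.57. In the Nkx6.1-P2A-Olig2 line Isl1 differed by -0.37 ± 0.55 (edgeR adjusted p = 0.784), or 0.22 without control replicate 5 (edgeR adjusted p = 0.772), a change of sign. Lhx3 thus lay above all controls in both lines that make Olig2. The lowest of these libraries, at 0.906 CPM, was close to control replicate 5 at 0.889 CPM. Lhx3 had also passed the filter on low values through 1 library of each of these lines. Isl1 lay above 4 of 5 controls in the Olig2 line and within the controls in the Nkx6.1-P2A-Olig2 line. The direct comparison of Isl1 in Nkx6.1-P2A-Olig2 with Olig2 gave -2.79 ± 0.62 (edgeR adjusted p = 0.0679) with the label series term and -1.35 without it (edgeR adjusted p = 0.258). It was -1.92 without control replicate 5 (edgeR adjusted p = 0.348), and it passed at -2.81 with DESeq2 (adjusted p = 0.00815) and at -3.04 with the label number as a term (edgeR adjusted p = 0.00356). The difference kept its sign under these settings, and its size and call moved with them.

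**Figure D4:**
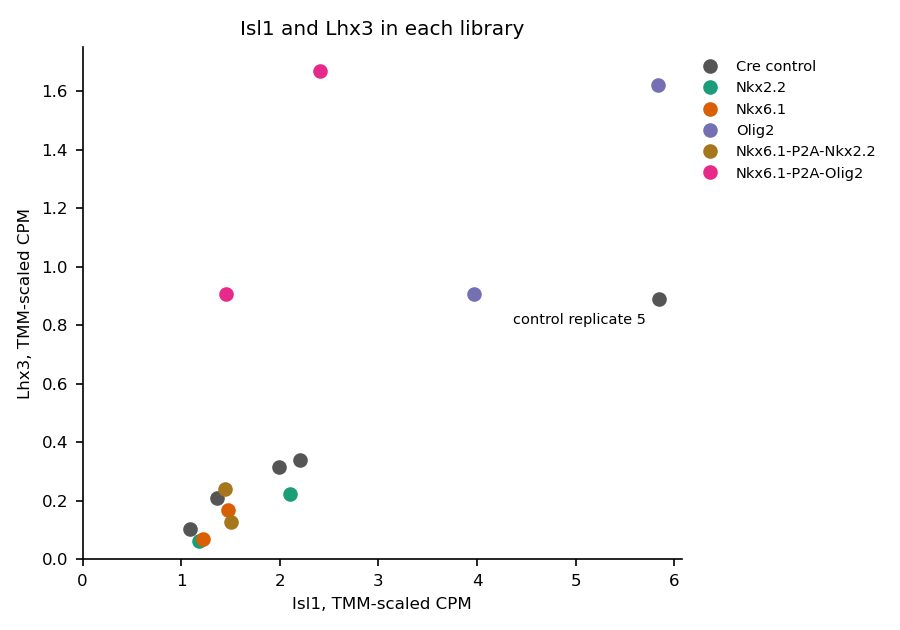
Isl1 against Lhx3 in each of the 15 libraries, both as TMM-scaled CPM on linear axes from 0. The Olig2 libraries and control replicate 5 (5.84 and 0.889 CPM) are high in both genes, the Nkx6.1-P2A-Olig2 libraries are high in Lhx3 with Isl1 at 1.45 and 2.41 CPM, and the other 10 libraries lie at 2.2 CPM of Isl1 or less and 0.338 CPM of Lhx3 or less.

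Across the 15 libraries Isl1 and Lhx3 had a Pearson r of 0.75 in log2(CPM + 1), or 0.77 without control replicate 5, a description over libraries that share lines. Markers of other cells are given beside these values. The summed endoderm markers were 524 to 539 CPM in the Olig2 line, above 4 of 5 controls, and 679 CPM in control replicate 5. They were also above 4 of 5 controls in the Nkx2.2 line, at 443 to 445 CPM, where Isl1 was at 1.18 and 2.10 CPM. The summed neuron markers were 98.8 and 170 CPM in the Olig2 libraries and 118 CPM in control replicate 5, against 85.9 to 114 CPM in the other controls, a range that includes Olig2 replicate 1. The part of these cells in the Isl1 and Lhx3 values was not tested.

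Isl2, the second Islet factor and a marker of postmitotic motor neurons, lies on chromosome 9 (55538672 to 55546180, plus strand, mm10) and had 8 to 22 counts a library. It was at 1.46 and 1.32 CPM in the Olig2 line, 0.939, 0.993, 0.883, 0.732 and 1.00 CPM in the controls, 0.677 and 0.541 CPM in Nkx6.1, and 0.641 and 0.630 CPM in Nkx6.1-P2A-Nkx2.2. The Olig2 libraries lay above all controls and the Nkx6.1 and Nkx6.1-P2A-Nkx2.2 libraries below all of them. None of these differences passed: Isl2 differed by 0.61 ± 0.24 in Olig2 (edgeR adjusted p = 0.324), -0.57 ± 0.27 in Nkx6.1 (edgeR adjusted p = 0.395) and -0.51 ± 0.28 in Nkx6.1-P2A-Nkx2.2 (edgeR adjusted p = 0.553). At these counts the standard errors of Isl2 are smaller than counting error alone would give, so they overstate its precision. The 2 libraries through which Isl2 passed the filter were those of the Olig2 line. Between Nkx6.1 and Olig2, Isl2 differed by -1.17 ± 0.31 (edgeR adjusted p = 0.0819).

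Lhx4, which overlaps Lhx3 in function during motor neuron specification, was too low to judge. It lies on chromosome 1 (155698031 to 155751684, minus strand, mm10) and had 0 to 9 counts a library, 43 in all. It had 0 counts in Nkx2.2 replicate 2 and control replicate 4, which allows up to 0.187 and 0.169 CPM (3 counts, counting error only). The highest library, Nkx6.1-P2A-Olig2 replicate 2, had 9 counts beside 2 in the other replicate of that line.

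Of the interneuron LIM factors, 0 were called in any line, where 0.722% to 2.85% of all tested genes were called. Lhx1, a factor of several interneuron classes and of lateral motor neurons, lies on chromosome 11 (84518284 to 84525535, minus strand, mm10). The controls gave 12.2, 11.8, 14.4, 18.5 and 7.45 CPM. Nkx6.1 gave 18.7 and 15.6 CPM, Nkx6.1-P2A-Nkx2.2 gave 22.6 and 14.8 CPM, Nkx6.1-P2A-Olig2 gave 21.3 and 8.70 CPM, Nkx2.2 gave 15 and 9.77 CPM and Olig2 gave 10.9 and 8.59 CPM. Every line overlapped the controls. The log2 differences from the control ran from -0.40 ± 0.36 in Olig2 (edgeR adjusted p = 0.703) to 0.53 ± 0.34 in Nkx6.1-P2A-Nkx2.2 (edgeR adjusted p = 0.540). The 2 libraries of Nkx6.1-P2A-Olig2 lay far apart, with an SD of 8.89 CPM (n = 2). Lhx1 and Isl1 went in opposite directions across libraries, with a Pearson r of -0.64 in log2(CPM + 1), or -0.52 without control replicate 5, and control replicate 5 held the lowest Lhx1 and the highest Isl1 of all 15 libraries.

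Lhx5, a close relative of Lhx1 active in interneurons, lies on chromosome 5 (120431699 to 120441223, plus strand, mm10) and had 1 to 20 counts a library. In 3 lines the replicates lay far apart: Nkx6.1 gave 0.282 and 1.28 CPM, Nkx6.1-P2A-Nkx2.2 gave 0.160 and 1.20 CPM and Nkx6.1-P2A-Olig2 gave 0.0604 and 1.00 CPM. The controls ranged from 0.416 to 1.11 CPM. Its log2 differences from the control carried standard errors of 0.78 to 0.84, and the smallest edgeR adjusted p was 0.850.

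Lhx2 and Lhx9 mark dorsal dI1 commissural interneurons in the spinal cord, and Lhx2 is also a forebrain and eye field factor. Lhx2 lies on chromosome 2 (38339281 to 38369733, plus strand, mm10). The controls gave 10.3, 8.36, 5.35, 7.49 and 7.28 CPM, and the lowest line was Nkx6.1-P2A-Olig2 with 5.50 and 4.42 CPM. Of these, 1 library lay below all controls. Lhx2 differed there by -0.64 ± 0.25 (edgeR adjusted p = 0.214), with a spread of 5.35 to 10.3 CPM among the controls. Lhx9, on chromosome 1 (138825186 to 138848577, minus strand, mm10), was too low to judge, with 0 to 4 counts a library and 25 in all. Its 4 libraries with 0 counts were control replicates 4 and 5 and replicate 2 of each 2-factor line, which allows up to 0.167 to 0.201 CPM.

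Lmo1, a LIM-only protein of the developing nervous system, lies on chromosome 7 (109138572 to 109175207, minus strand, mm10). It had 9 to 30 counts a library, 0.676 to 1.56 CPM in the controls and 0.567 to 1.55 CPM in the lines. Its log2 differences ran from -0.35 ± 0.39 in Nkx6.1-P2A-Nkx2.2 to 0.34 ± 0.34 in Nkx2.2, with an edgeR adjusted p of 0.759 or more in all 5 lines. The 2 LIM-only members thus stood far apart in precision: the standard error of the same contrasts was 0.10 for Lmo4. Antisense genes overlap Isl2, Lhx2, Lhx3, Lhx5 and Lmo1 in the annotation, and because the strand setting of the counting is not given, reads of the 2 strands cannot be told apart for these 5.

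The partners of the LIM proteins differed widely in level. The adaptor Ldb1 was at 169 to 213 CPM in all 15 libraries, and its log2 differences from the control were between -0.06 and 0.10 in the 5 lines, with SE 0.08. Its relative Ldb2 was far lower, at 0.561 to 1.67 CPM, and was not called in any line. Of 6 LIM cofactors, all tested, 2 rose in Nkx6.1-P2A-Olig2, where 2.84% of all genes were called. In the other 4 lines 0 cofactors were called, against 0.722% to 2.85% of all genes. Ssbp3, a single-stranded DNA-binding protein that stabilises Ldb1, rose by 0.31 ± 0.05 (edgeR adjusted p = 0.00814), with 313 and 310 CPM against 242 to 261 CPM in the controls. Ssbp2, of the same family, rose by 0.48 ± 0.11 (edgeR adjusted p = 0.0288), with 40.6 and 36.9 CPM against 24.6 to 29.7 CPM in the controls. Of 6 further LIM homeodomain and LIM-only genes (Lhx6, Lhx8, Lmx1a, Lmx1b, Lmo2 and Lmo3), 5 were tested and 0 were called in any line, against 0.722% to 2.85% of all genes per line. The medians of these 5 genes ran from -0.35 to 0.13 over the lines. The tested members had medians of -0.12 in Nkx2.2, -0.35 in Nkx6.1, 0.09 in Olig2, -0.26 in Nkx6.1-P2A-Olig2 and -0.47 in Nkx6.1-P2A-Nkx2.2, and medians of all tested genes lay between -0.01 and 0.00.

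Genes of the neurons that LIM factors specify passed the test in some lines, and how many did so differed by list. Of all tested genes, 0.722% to 2.85% were called in a line. Of 11 motor neuron genes 7 were tested, and 0 were called in the Nkx6.1, Olig2 and both 2-factor lines. Among them Mnx1, a motor neuron homeodomain gene, differed by 0.64 ± 0.30 in the Olig2 line (edgeR adjusted p = 0.392). Of 9 V2 interneuron genes 6 were tested. Gata3, a V2b factor, fell in Nkx6.1-P2A-Nkx2.2 (-1.55 ± 0.25, edgeR adjusted p = 0.00360) and Nkx6.1-P2A-Olig2 (-0.93 ± 0.23, edgeR adjusted p = 0.0484).

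Among V0, V1 and V3 genes, 4 of 7 were tested, and the V3 factor Sim1 rose in Nkx2.2 (2.02 ± 0.38, edgeR adjusted p = 0.0273). Of 9 dorsal interneuron genes 4 were tested. Of these 4, 1 was called higher and 1 lower in Nkx6.1-P2A-Nkx2.2, where 2.85% of all genes were called. In Nkx6.1-P2A-Olig2, 2 were called lower, where 2.84% of all genes were called. Pou4f1, held in both the dorsal list and the V0, V1 and V3 list, fell in Nkx6.1-P2A-Olig2 (-1.49 ± 0.28, edgeR adjusted p = 0.0129). Tlx1 rose in Nkx2.2 (2.18 ± 0.27, edgeR adjusted p = 0.00263) and Nkx6.1-P2A-Nkx2.2 (1.36 ± 0.30, edgeR adjusted p = 0.0259). Prdm13 fell in Nkx6.1-P2A-Nkx2.2 (-4.72 ± 0.98, edgeR adjusted p = 0.0217) and Nkx6.1-P2A-Olig2 (-3.47 ± 0.82, edgeR adjusted p = 0.0403). Of 8 neural progenitor markers, Pax6 fell in all 5 lines, by -3.44 ± 0.24 to -1.13 ± 0.20, and Sox2 fell in Nkx6.1 (-0.63 ± 0.13, edgeR adjusted p = 0.0428). Of the mesoderm markers Meox1 fell in Olig2 (-1.15 ± 0.25, edgeR adjusted p = 0.0332). Of the neural crest markers Twist1 (-1.69 ± 0.28) and Tfap2b (-4.17 ± 0.89) fell and Erbb3 (0.72 ± 0.15) rose in Nkx6.1-P2A-Nkx2.2, and Tfap2a fell in Nkx6.1-P2A-Olig2 (-1.72 ± 0.40). Pluripotency and postmitotic neuron markers had 0 called genes in all 5 lines, against 0.722% to 2.85% of all genes.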

How the data were processed

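RNA was purified on columns and prepared with a TruSeq kit, per the labels' protocols. STAR, DESeq2 and mm10 are named in the submitters' processing notes, with no roles; the annotation, the counting tool and its strand setting are not given in the sources used here. The first deposited table has 23420 rows. The sheet name says RPKM, but its deposited values are whole-number counts, so a count test was used. In 27 rows a date had replaced the symbol; they hold 0.228% to 0.253% of counts, were kept in the totals and left untested. The second deposited table gives a ratio for 224 genes: all 2240 values equalled, within 1e-08, the count over the control mean. It holds 0 of the 10 members and was not used further.

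TMM scaling and fits used edgeR 4.0.16 under R 4.3.3. The 13982 genes that reached 1 CPM in 2 or more libraries were fitted with the quasi-likelihood test in 1 model of all 15 libraries, and p-values were adjusted by Benjamini-Hochberg with a threshold of 0.05. Standard errors are the log2 fold change over the root of F, and for a gene of low counts such as Isl2 they can fall below counting error. Fits that set a 2-factor line against a single-factor line had the label series as a term. Levels are means ± SD. No 2 libraries of a group were duplicates: chi-square per degree of freedom was 3.51 to 47.1.

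Alternatives were DESeq2 1.42.0, limma 3.58.1 on log2(CPM + 1) and log2(CPM + 0.5), no filter, a filter at 5 CPM, median-of-ratios scaling, the compared groups alone, label series, replicate number or label number as terms, and each library left out. The fit was also run on simulated data that held no label number or label series effect, so that run does not cover such effects. All 10 members are described; of the other lists, the members called in a line are named, at most 4 per list and line, except for results not reported here, and a gene named beyond that (Ldb1, Ldb2, Mnx1 and the neighbours of Lmo4) was added for its role or position. Members and lists were chosen with earlier results of these data known. Positions are from GENCODE M21 on GRCm38, the assembly of mm10.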

Additional observations from a re-analysis of the deposited data

Results flagged for a closer look

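Isl1 in control replicate 5, at 5.84 CPM, stood apart from the other 4 controls, which lay at 1.09 to 2.2 CPM; its gap exceeded Dixon's 95% critical value for a group of 5. Of 10 members tested this way in the controls, this was the 1 past the value, and chance gives about 1 in 20. Lhx3 (0.889 CPM) and Olig2 (45.1 CPM) were also highest among the controls in that library. The cause was not tested.

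Lmo4 differed between single-factor lines by a direct test. It was higher in the Nkx2.2 than in the Nkx6.1 line by 0.66 log2 units (edgeR adjusted p = 0.0281, both libraries above both). That call was lost with the label number as a term (0.41, edgeR adjusted p = 0.210) and without any 1 of its 4 libraries (edgeR adjusted p = 0.0686 to 0.250). Lmo4 was lower in the Nkx6.1 than in the Olig2 line by -0.72 (edgeR adjusted p = 0.00458, both libraries below both), a call lost without Nkx6.1 replicate 1 (-0.70, edgeR adjusted p = 0.0675).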

How the results depend on the processing

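Over 26 alternative settings, 2096 of 2132 member values stayed on their side of the threshold, 14 were no longer past it, 22 were newly past it and 0 reversed with a call; 125 that were uncalled in both changed sign. Lmo4 in Nkx6.1-P2A-Nkx2.2 stayed called under the 15 leave-one-out fits and the 10 other alternatives run for it, at -0.89 to -0.81. Members called against the control, leaving out each library in turn, numbered 0 to 1 in Nkx6.1 (1 with all libraries), 0 to 2 in Olig2 (0) and 0 to 2 in Nkx6.1-P2A-Olig2 (1). Between lines they numbered 0 to 1 for Nkx2.2 against Nkx6.1 (1), 0 to 1 for Nkx2.2 against Olig2 (0), 0 to 3 for Nkx6.1 against Olig2 (1) and 0 to 1 for Nkx6.1-P2A-Olig2 against Olig2 (0). With only the compared groups fitted, or with the label series as a term, 0 members were called in Nkx6.1-P2A-Olig2; Lmo4 was at -0.43 (adjusted p = 0.0999) and -0.48 (adjusted p = 0.0694) there, against -0.43 in the fit reported. With the label number as a fixed term, 2 were called in Olig2 (Isl1 2.04, Lhx3 3.37), 2 in Nkx6.1-P2A-Nkx2.2 (Lmo4 and Isl1, -1.39), 1 in Nkx6.1-P2A-Nkx2.2 against Nkx2.2 (Lmo4), 1 in Nkx6.1-P2A-Olig2 against Olig2 (Isl1), 0 in Nkx2.2 against Nkx6.1 (Lmo4 0.41, adjusted p = 0.210), 2 in Nkx2.2 against Olig2 (Isl1, Lhx3) and 1 between the 2-factor lines (Lmo4). DESeq2 called 1 member (Lmo4) in Nkx6.1-P2A-Nkx2.2 against Nkx2.2, as did the fit with no label series term, and 1 (Isl1) in Nkx6.1-P2A-Olig2 against Olig2. The cause of these changes was not tested.

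Replicate numbers are shared by lines and controls. Among same-numbered libraries, though, only Nkx6.1 replicate 1 shares its label number with the control. Correlations between deviations of replicate 1 and control replicate 1 were -0.09 in Nkx6.1 and 0.37 to 0.54 in the other lines. For replicate 2 they were -0.06 to 0.12. With 2 libraries a line the deviations mirror each other, so these correlations cannot decide whether the numbers pair the samples. With a replicate block, 1 member was called in Nkx2.2 against Olig2 (Lhx3 -3.02) and 3 in Nkx6.1 against Olig2 (Lmo4, Isl1 -1.84, Lhx3 -3.26). In Nkx6.1-P2A-Olig2 the block left 1 call, Lhx2 (-0.91, adjusted p = 0.0186) in place of Lmo4 (-0.42, adjusted p = 0.108).

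Genes called against the control over the whole table numbered 101 for Nkx2.2, 103 for Nkx6.1, 260 for Olig2, 399 for Nkx6.1-P2A-Nkx2.2 and, last, 397 for Nkx6.1-P2A-Olig2. DESeq2 gave 220, 486, 432, 650 and 714; the label number term gave 269, 40, 2021, 1109 and 1269; the label series term gave 56, 56, 218, 202 and 187; the compared groups alone gave 32, 62, 164, 309 and 261; and the replicate block gave 40 in Nkx6.1. Leaving out 1 library gave 16 to 151, 1 to 283, 106 to 444, 89 to 531 and 81 to 550. Depth limits Lhx3, Lhx4, Lhx5 and Lhx9 most, with a median of 11 counts a library or fewer.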
